A study of Mus musculus with 9 samples.

Results

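The collagen genes of these arrays are the 42 genes whose symbol is Col, a number, the letter a and a number, among 18194 genes tested. They are read by 82 probe sets that the platform annotation assigns to 1 gene symbol, and each gene with several is represented by the probe set of the highest mean over all 9 arrays. The names were thus set by symbol, but the family was chosen with earlier results of these arrays known, including the rises of Col5a3 and Col5a1. The probe set and the division into genes above and at background used the measured levels, so that division is given as a description only. The samples are mouse leukemias, 9 arrays in 3 groups of 3, each hybridised with cRNA made from 100 ng of total RNA from fresh bone marrow cells. All 3 groups carry the strain background C57/BL6 X 129. Ages are not used here.

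The first group, Af10 deleted, holds MLL-AF9 leukemias in which both copies of Af10 (Mllt10, which encodes a partner of the histone methyltransferase DOT1L) were floxed and which had received an MSCV-IRES-tdTomato vector expressing Cre. The next, Af10 floxed, holds leukemias of the same genotype that had received the empty vector. Both came from secondary recipients and were sorted for tdTomato. The remaining group, Hoxa9-Meis1, holds primary leukemias obtained with transduced Hoxa9 and Meis1, which were neither sorted nor treated. Loss of Af10 and expression of Cre cannot be told apart in these data, nor can oncogene, transplant generation, vector and sorting in any comparison with Hoxa9-Meis1. No source states that the 3 arrays of a group are separate mice or separate primary leukemias, so the p-values cover only how far these samples spread, and that spread may be technical. In whole populations of cells, fewer cells of a type and less RNA per cell cannot be told apart.

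Mllt10 lay at 9.93, 9.89 and 10.19 (log2 intensity) in the deleted arrays, against 11.20, 10.49 and 11.18 in the floxed arrays and 10.46 to 10.93 in the Hoxa9-Meis1 arrays. The difference between deleted and floxed was -0.95 (limma adjusted p = 0.0293), and the groups did not overlap. Where the probe set lies relative to the floxed part of the gene is not given in the sources used here. Ptprc (CD45, of all leukocytes) lay between 11.91 and 12.57 on every array, and Mpo (the myeloperoxidase of granulocyte precursors) between 13.69 and 14.26. Hoxa9 was at 13.58 to 13.82 in the Hoxa9-Meis1 arrays, at 11.75 to 12.52 in the floxed arrays and at 7.35 to 10.20 in the deleted arrays. Meis1, however, was lowest in the Hoxa9-Meis1 arrays, at 6.72 to 7.15, and whether its probe set reads the transduced copy is not given. Correlations between arrays over all genes were 0.982 to 0.992 within groups and 0.943 to 0.974 between them.

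Collagens are the main structural proteins of the extracellular matrix. Their chains fold into a rope-like helix in the endoplasmic reticulum, with the help of hydroxylases and the chaperone Hsp47, and are trimmed and cross-linked outside the cell. Fibrillar collagens such as types I, III and V form the tensile fibres. Type IV forms the sheet of basement membranes, type VI forms beaded filaments at the cell surface, and fibril-associated collagens decorate fibres. In bone marrow most collagen is made by stromal cells, osteoblasts and vessels, and leukocytes read it through integrins and inhibitory receptors.

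The promoters of the 5 collagen genes with the widest called shifts between the deleted and floxed groups are shown first: Col5a3, Col5a1 and Col6a4 rose and Col6a3 and Col19a1 fell. Each is the 250 bases before the annotated start in the RefSeq table of GRCm38.p6, on the plus strand for Col5a1 and on the minus strand for the others. Capitals mark every match, on either strand, to CCAAT (the CCAAT box), GGGCGG (the GC box bound by Sp1 family factors), TATAAA (the TATA box) and TGACAG (the core of the motif bound by Meis proteins). These motifs do not overlap each other in the 5 windows. The windows lie at chr9:20815068-20815317 for Col5a3, chr2:27886175-27886424 for Col5a1, chr9:106096692-106096941 for Col6a4, chr1:90843972-90844221 for Col6a3 and chr1:24587438-24587687 for Col19a1.
Col5a3: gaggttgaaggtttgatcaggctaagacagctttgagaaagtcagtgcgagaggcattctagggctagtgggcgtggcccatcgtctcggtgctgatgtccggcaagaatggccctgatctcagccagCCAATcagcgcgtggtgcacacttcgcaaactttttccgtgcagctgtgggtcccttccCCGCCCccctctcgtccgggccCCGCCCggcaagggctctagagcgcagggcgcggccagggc
Col5a1: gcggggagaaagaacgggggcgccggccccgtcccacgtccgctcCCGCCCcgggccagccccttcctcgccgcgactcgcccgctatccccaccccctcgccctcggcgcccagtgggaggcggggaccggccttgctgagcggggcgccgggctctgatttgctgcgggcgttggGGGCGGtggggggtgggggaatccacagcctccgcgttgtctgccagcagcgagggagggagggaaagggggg
Col6a4: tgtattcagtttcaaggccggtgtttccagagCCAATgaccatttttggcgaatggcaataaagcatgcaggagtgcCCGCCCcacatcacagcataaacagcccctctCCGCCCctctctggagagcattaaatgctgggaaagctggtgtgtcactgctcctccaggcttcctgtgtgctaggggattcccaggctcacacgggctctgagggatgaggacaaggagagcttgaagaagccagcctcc
Col6a3: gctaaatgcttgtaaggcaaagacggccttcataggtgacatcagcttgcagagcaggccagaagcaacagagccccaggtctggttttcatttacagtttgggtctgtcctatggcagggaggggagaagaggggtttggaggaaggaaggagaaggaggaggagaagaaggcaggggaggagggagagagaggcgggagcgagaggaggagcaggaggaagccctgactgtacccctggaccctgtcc
Col19a1: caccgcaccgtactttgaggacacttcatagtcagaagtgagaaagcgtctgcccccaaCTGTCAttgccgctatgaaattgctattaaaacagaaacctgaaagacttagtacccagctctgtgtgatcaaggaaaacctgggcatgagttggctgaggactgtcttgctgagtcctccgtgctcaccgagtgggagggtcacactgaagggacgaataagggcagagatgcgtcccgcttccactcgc

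The Col5a3 and Col6a4 windows each hold 1 CCAAT box and 2 GC boxes, the Col5a1 window holds 2 GC boxes and no CCAAT box, the Col6a3 window holds none of the 4 motifs, and the Col19a1 window holds 1 TGACAG match. The Col5a1 window is the richest in CpG of the 5, with 28 CpG and 76.4% G or C. That of Col5a3 holds 17 CpG, that of Col19a1 10, that of Col6a4 5 and that of Col6a3 3. The table held 36 windows for 33 of the 42 collagen genes. Of these 36, 13 (36.1%) hold a CCAAT box, against 33.8% of all 32851 windows in the table. A GC box stands in 21 (58.3%), against 32.7% of all windows, and the collagen windows also had the higher median share of G or C, 59% against 52.4%. TATAAA was in 5 (13.9% against 12.4% of all) and TGACAG in 4 (11.1% against 15.9%). A match is a description of the letters and not a site.

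Levels are given as log2 of the deposited intensity plus 1. Background was gauged by the 43 probe sets of olfactory receptor genes (Olfr), which are read mainly in the nose. Their 95th percentile over all arrays was 6.87, and a gene counts here as above background in a group where all 3 arrays exceed that level. Levels of different genes come from different probe sets and are not ranked against each other.

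Of the 42 collagen genes, 18 were above background in at least 1 group. There were 13 in the deleted arrays, 11 in the floxed arrays and 9 in the Hoxa9-Meis1 arrays. In all 3 groups there were 6: Col8a1 (short-chain collagen of vessels), Col9a3 (type IX, of cartilage), Col11a2 (type XI, of cartilage), Col18a1 (the precursor of endostatin), Col20a1 (fibril-associated) and Col25a1 (a transmembrane collagen found in amyloid plaques). These levels are those of the brightest probe set of each gene. The other probe sets of Col8a1 (means over the 9 arrays of 4.43 and 3.14) and Col9a3 (3.97 and 4.78) were under background on every array. That of Col25a1 exceeded the level only in deleted replicate 6, at 7.11. The other probe set of Col18a1 was under background on all deleted arrays, at 6.63 to 6.81. A dim probe set of Col20a1 (mean 5.13) was under it on every array, while another exceeded it on all deleted and all Hoxa9-Meis1 arrays. Col1a1 and Col6a2, above background in the deleted group, did not pass there with their other probe set. Of the 24 genes at background, 20 had no array above the level. The last gene inside the division was Col6a2, whose lowest array in its qualifying group lay at 6.90, and the first outside was Col4a4, at 6.86. The level matters: with the 99th percentile of the olfactory receptor values, 7.44, 8 genes remained, namely Col5a1, Col5a3, Col11a2, Col18a1, Col19a1, Col20a1, Col23a1 and Col25a1.

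**Figure D1:**
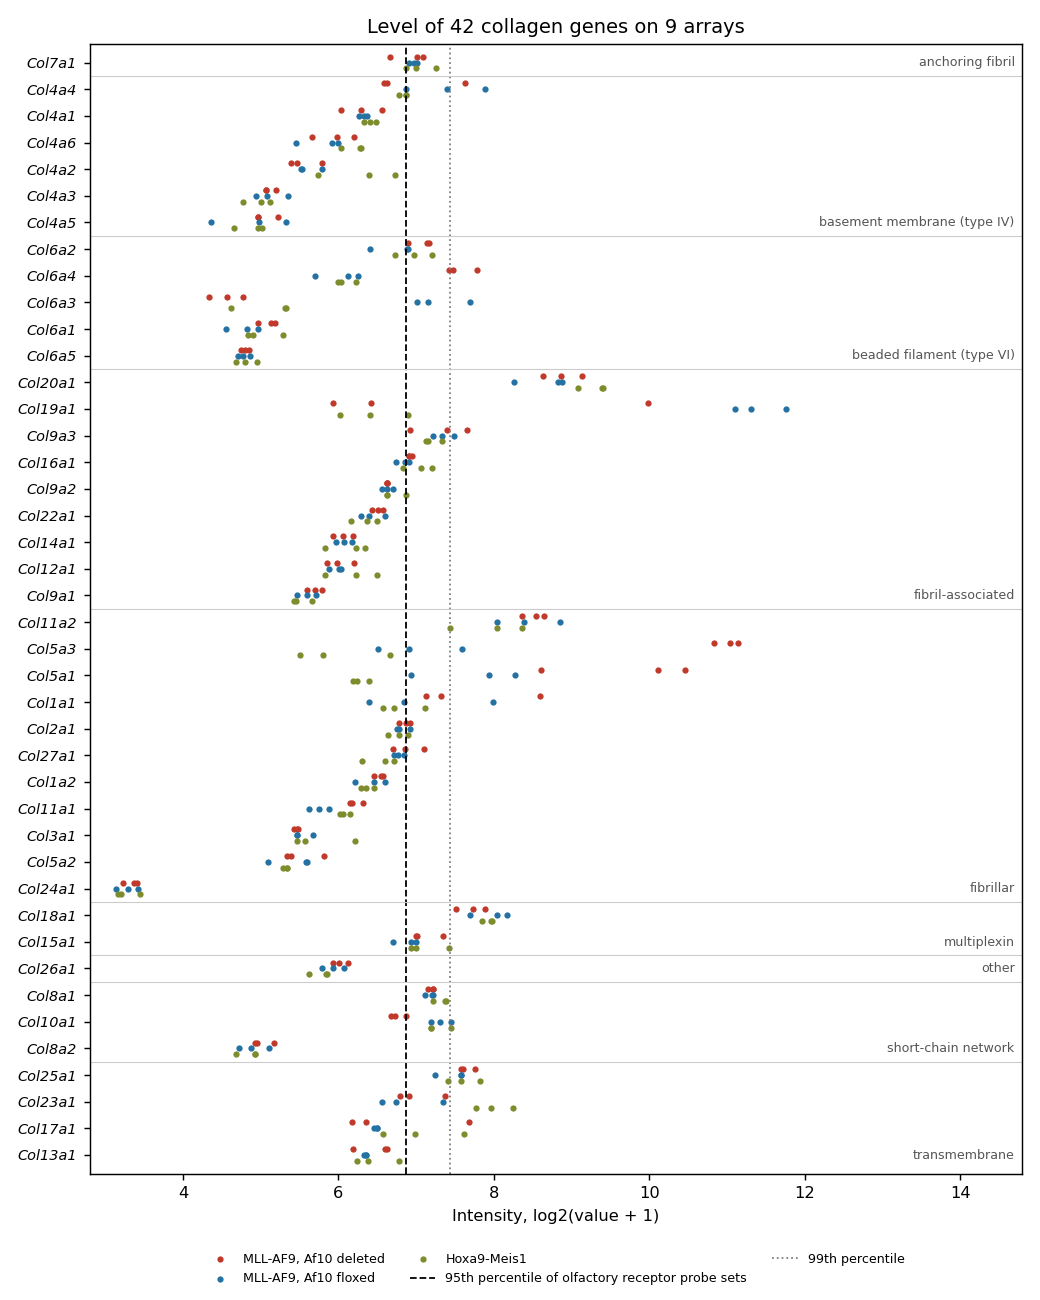
Level of each of 42 collagen genes (rows, grouped by class) on the 9 arrays, as log2(intensity + 1) on the horizontal axis, with 1 point per array coloured by group. The dashed line is the 95th percentile of olfactory receptor probe sets (6.87) and the dotted line the 99th (7.44); Col19a1, Col5a3 and Col5a1 are the only rows with points at 9.99 or above.

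By class, 4 of 11 fibrillar genes were above background (Col1a1, Col5a1, Col5a3 and Col11a2), and so were 3 of 5 type VI genes (Col6a2, Col6a3 and Col6a4), 4 of 9 fibril-associated genes (Col9a3, Col16a1, Col19a1 and Col20a1), 2 of 3 short-chain genes (Col8a1 and Col10a1), 2 of 4 transmembrane genes (Col23a1 and Col25a1), both multiplexins (Col15a1 and Col18a1) and the anchoring fibril gene Col7a1. None of the 6 type IV genes, the chains of basement membranes, was above background on all arrays of a group. Col4a4 came nearest, at 7.40, 7.88 and 6.86 in the floxed arrays, and it lay at 7.63 in deleted replicate 6. Several chains that usually assemble with the ones detected were at background. Col1a2, the partner of Col1a1 in type I collagen, lay between 6.22 and 6.60 on the 9 arrays. Col3a1, the fibrillar collagen of reticular fibres, lay between 5.42 and 6.21. Col5a2, the chain shared by most type V molecules, lay between 5.10 and 5.82, and Col6a1, the obligate partner in type VI filaments, between 4.55 and 5.29.

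The comparison of Af10 deleted with Af10 floxed leukemias asks what differs between MLL-AF9 leukemias that received Cre and those that received the empty vector. Of the 42 collagen genes 7 (16.7%) differed at a limma adjusted p under 0.05, against 6.85% of all genes tested. Of these, 4 rose (9.52%, against 3.22% of all genes): Col5a1, Col5a3, Col6a4 and Col11a1. The other 3 fell (7.14%, against 3.63% of all genes): Col6a3, Col10a1 and Col19a1. Because the family was chosen with the rises of Col5a3 and Col5a1 known, these shares are a description only. The median difference was 0.09 (log2) over the 42 collagen genes and 0.06 over all genes. The number called depended on single arrays. It was 4 without deleted replicate 4 and 3 without deleted replicate 5, floxed replicate 5 or floxed replicate 6. Col5a3, Col6a3 and Col6a4 were called in every one of the 14 or 15 alternatives run for them, whereas Col5a1, Col10a1, Col11a1 and Col19a1 were each lost in at least 7.

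**Figure D2:**
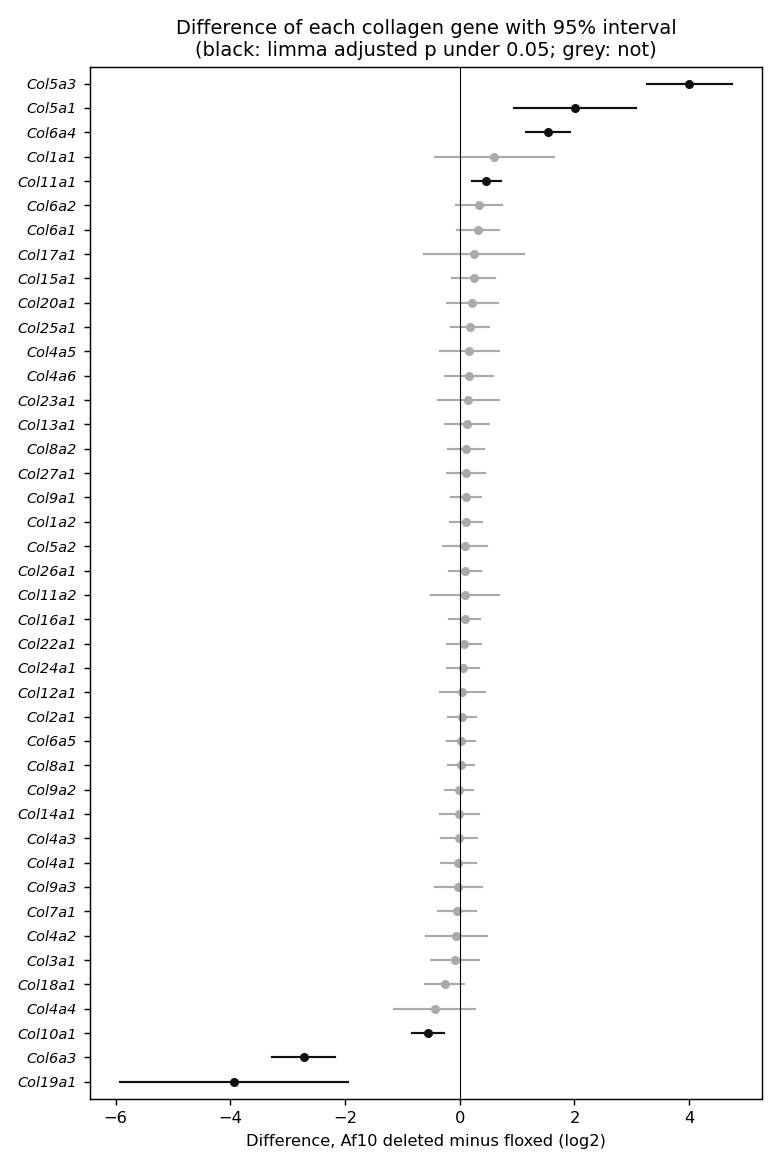
Difference between Af10 deleted and Af10 floxed leukemias (log2, horizontal axis) for each of the 42 collagen genes, with the limma 95% interval as a line, 3 arrays per group. Black marks the 7 genes with an adjusted p under 0.05, from Col5a3 at 4.0 to Col19a1 at -3.94, and most grey genes lie close to 0.

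Type V collagen is a minor fibrillar collagen that starts and limits the growth of collagen fibres. Col5a3, an alpha3 chain found in part of its molecules, rose most among the collagen genes. It lay at 10.83, 11.03 and 11.14 in the deleted arrays, at 7.59, 6.51 and 6.90 in the floxed arrays and at 6.66, 5.80 and 5.50 in the Hoxa9-Meis1 arrays. The deleted arrays were all more than 3 log2 units above every other array, while the floxed arrays straddled the background level and all Hoxa9-Meis1 arrays were under it. The mean was 11.00 ± 0.16 (SD, n = 3) in the deleted and 7.0 ± 0.55 (SD, n = 3) in the floxed group. The difference was 4.0 (SE 0.33, 95% interval 3.26 to 4.75), a 16.0-fold rise (limma adjusted p = 0.000226), and it ranked 7 among the rises of all genes. A second probe set of Col5a3 read 8.86, 9.47 and 10.64 against 5.74, 6.12 and 6.12, a difference of 3.67 (limma adjusted p = 0.00092 over all probe sets). Both probe sets thus separated the groups without overlap.

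Col5a1, the chain present in nearly all type V molecules, lay at 8.60, 10.46 and 10.11 in the deleted arrays, at 8.27, 6.93 and 7.94 in the floxed arrays and at 6.24, 6.19 and 6.39 in the Hoxa9-Meis1 arrays. Deleted replicate 4 was only slightly above floxed replicate 4, so the groups nearly met. The difference between deleted and floxed was 2.01 (SE 0.47, 95% interval 0.94 to 3.08), 4.03-fold, with a limma adjusted p of 0.0381. Unlike that of Col5a3, this call was fragile. It was lost without deleted replicate 5 (limma adjusted p = 0.105), deleted replicate 6 (0.107), floxed replicate 5 (0.129) or floxed replicate 6 (0.0626). The other probe sets of Col5a1 gave differences of 1.31 (limma adjusted p = 0.144) and 0.35 (0.295). The remaining type V gene, Col5a2, stayed under background, with a difference of 0.09 (limma adjusted p = 0.800).

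Col11a1, a cartilage fibril chain closely related to Col5a1, lay at 6.31, 6.18 and 6.15 in the deleted and at 5.88, 5.62 and 5.75 in the floxed arrays. All 9 arrays were under background, so no fold is given for the difference of 0.46 (limma adjusted p = 0.0384), and its other probe set differed by -0.04. The call was kept in 4 of 14 alternatives, and was lost without any 1 of deleted replicates 4, 5 and 6 or floxed replicates 5 and 6 (limma adjusted p 0.0707 to 0.117). Col1a1, the main chain of bone and skin collagen, lay at 7.32, 8.59 and 7.12 in the deleted arrays, at 7.99, 6.40 and 6.84 in the floxed arrays and at 7.11, 6.71 and 6.57 in the Hoxa9-Meis1 arrays. Its difference of 0.60 had an interval from -0.44 to 1.64 (limma adjusted p = 0.491), and the deleted and floxed arrays overlapped. Col11a2 was above background on all 9 arrays, from 7.43 to 8.85, with a difference of 0.09 between deleted and floxed (limma adjusted p = 0.876).

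Type VI genes moved in opposite directions. Col6a4, which in the mouse encodes a chain able to take the place of the alpha3 chain, lay at 7.42, 7.48 and 7.79 in the deleted arrays. It was under background on all other arrays, at 6.26, 5.70 and 6.12 in the floxed and at 6.23, 5.99 and 6.03 in the Hoxa9-Meis1 arrays. The difference between deleted and floxed was 1.53 (SE 0.17, 95% interval 1.16 to 1.91; limma adjusted p = 0.00118), and because the floxed group has only a bound, the level was at least 1.61-fold higher in the deleted group. Its second probe set rose by 1.68 (limma adjusted p = 0.0022), from 6.14, 5.44 and 5.76 to 7.71, 7.37 and 7.31.

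Col6a3, the large alpha3 chain itself, went the other way. It was above background in the floxed arrays alone, at 7.15, 7.69 and 7.01, and lay at 4.78, 4.57 and 4.33 in the deleted arrays and at 4.62, 5.32 and 5.31 in the Hoxa9-Meis1 arrays. The deleted arrays were more than 2 log2 units below every floxed array. The difference was -2.72 (SE 0.24, 95% interval -3.27 to -2.18; limma adjusted p = 0.000378), and the level was at least 1.33-fold higher in the floxed group, a bound set by the background level. Only 1 probe set reads Col6a3. Col6a2, the remaining type VI gene above background, lay at 7.16, 7.14 and 6.90 in the deleted, 6.90, 6.41 and 6.88 in the floxed and 6.73, 6.97 and 7.20 in the Hoxa9-Meis1 arrays, which overlap (limma adjusted p = 0.301 between deleted and floxed). Col6a5, which lies beside Col6a4, was at background on all arrays, with a difference of 0.02.

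**Figure D3:**
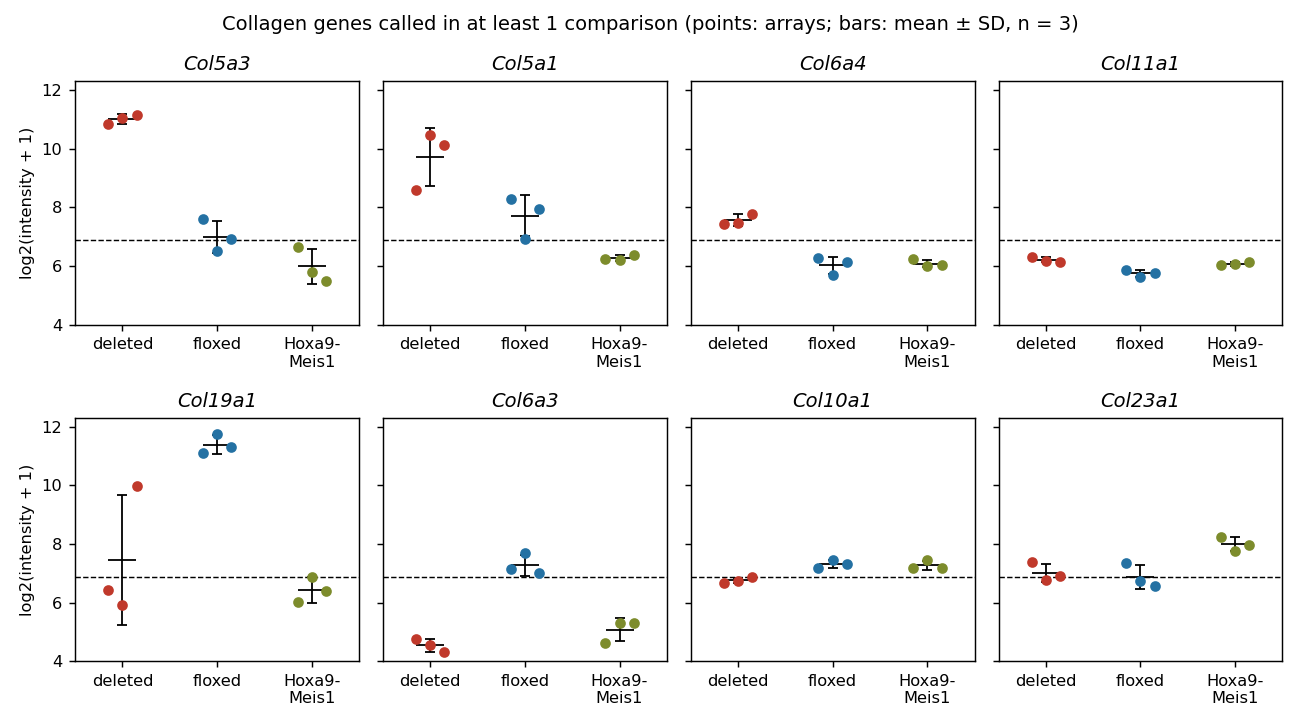
Level, as log2(intensity + 1), of the 8 collagen genes called in at least 1 of the 3 comparisons, with 1 point per array, the mean as a bar and the SD as error bars (n = 3 per group). The dashed line is the background level of 6.87; Col5a3 and Col6a4 are high in the deleted group, Col6a3 and Col19a1 in the floxed group and Col23a1 in the Hoxa9-Meis1 group.

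Col19a1, a fibril-associated collagen known from muscle and nerve development, fell most among the collagen genes. It lay at 11.10, 11.75 and 11.31 in the floxed arrays, against 6.42, 5.93 and 9.99 in the deleted arrays and 6.02, 6.89 and 6.40 in the Hoxa9-Meis1 arrays. The floxed arrays stood above all others, and within the deleted group replicate 6 stood far above the other replicates, which were under background. The difference between deleted and floxed was -3.94 with a wide interval (SE 0.88, 95% interval -5.92 to -1.96; limma adjusted p = 0.0306), and it ranked 16 among the falls of all genes. Without deleted replicate 6 it was -5.21, and the floxed level was at least 22.9-fold higher than that of deleted replicates 4 and 5. Against deleted replicate 6 alone the floxed mean was 1.40 higher, 2.64-fold.

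All 3 probe sets of Col19a1 showed this order. The second read 9.23, 9.92 and 9.71 in the floxed arrays and 5.27, 5.40 and 8.43 in the deleted arrays, and the last read 9.28, 9.50 and 9.41 against 4.60, 4.42 and 7.72. The call of the difference was lost when deleted replicate 4 (limma adjusted p = 0.103), deleted replicate 5 (0.0846) or floxed replicate 4 (0.0594), 5 (0.113) or 6 (0.0632) was left out. The rise of Col19a1 in deleted replicate 6 over the other deleted arrays was 3.81, rank 3 among all genes. Over the 1066 genes of chromosome 1, which carries Col19a1, the same quantity had a median of 0.15, over the 22 genes within 5 Mb of Col19a1 it was 0.27, and over all genes it was 0.00. Among the other collagen genes of chromosome 1, Col4a4 was higher by 1.02 in that array, where alone of the deleted arrays it exceeded background. Col3a1 differed by 0.04, Col9a1 by 0.00, Col4a3 by -0.06, Col5a2 by -0.27 and Col6a3 by -0.34. All of these but Col4a4 were under background on every deleted array, so they carry little information on a shift. The part of these values in the result was not tested.

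**Figure D4:**
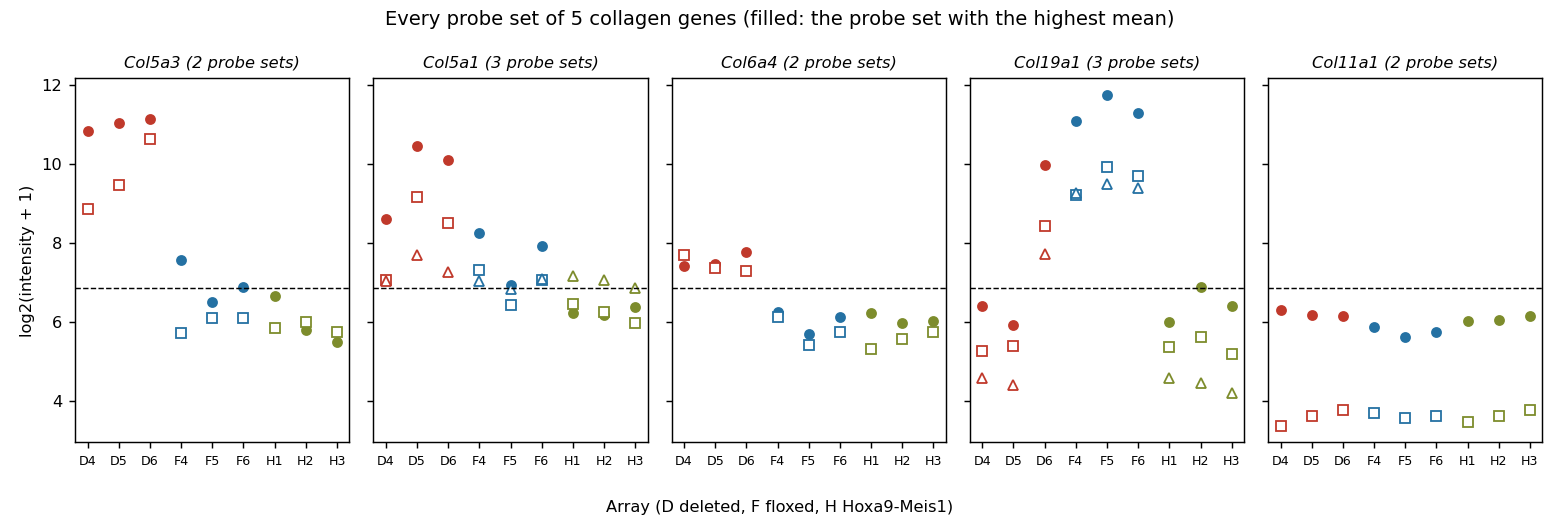
Level, as log2(intensity + 1), of every probe set of Col5a3, Col5a1, Col6a4, Col19a1 and Col11a1 on each array (D deleted, F floxed, H Hoxa9-Meis1, with the replicate number), where filled circles are the probe set with the highest mean and open symbols the others. The 3 probe sets of Col19a1 all show deleted replicate 6 between the floxed arrays and the other deleted arrays, and the second probe set of Col11a1 shows no difference between the groups.

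Among the other fibril-associated genes, Col20a1 lay at 8.63, 8.86 and 9.13 in the deleted, 8.88, 8.26 and 8.82 in the floxed and 9.39, 9.40 and 9.08 in the Hoxa9-Meis1 arrays. Its representative probe set was not called between deleted and floxed (0.22, limma adjusted p = 0.564), but a dimmer one was, at 6.74, 6.82 and 6.78 against 6.27, 6.28 and 6.30 (0.50, limma adjusted p = 0.0468 over all probe sets). All 6 of those values are under background. Col9a3 lay between 6.92 and 7.65 and Col16a1 between 6.74 and 7.21 on the 9 arrays, and neither passed the test in any comparison.

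Col10a1, the network collagen of growth cartilage, lay at 6.68, 6.73 and 6.86 in the deleted arrays, against 7.19, 7.45 and 7.30 in the floxed and 7.19, 7.45 and 7.19 in the Hoxa9-Meis1 arrays. The deleted arrays, all just under background, did not overlap the other groups. The difference from floxed was -0.56 (SE 0.12; limma adjusted p = 0.0290), a level at least 1.36-fold higher in the floxed group. The call was lost without deleted replicate 4 (limma adjusted p = 0.0925), deleted replicate 5 (0.0834), floxed replicate 5 (0.0894) or floxed replicate 6 (0.0606). In the RefSeq table Col10a1 lies inside the bounds of Nt5dc1, whose own level differed by -0.34 (limma adjusted p = 0.341). Col8a1, of the same class, lay between 7.12 and 7.38 on all 9 arrays.

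The remaining genes above background moved little. Col23a1, a transmembrane collagen, lay at 7.37, 6.79 and 6.91 in the deleted and at 7.34, 6.74 and 6.56 in the floxed arrays (0.15, 95% interval -0.38 to 0.68; limma adjusted p = 0.761). Col25a1 lay between 7.24 and 7.83 on the 9 arrays, Col18a1 between 7.51 and 8.17, Col15a1 between 6.70 and 7.42 and Col7a1 between 6.66 and 7.26, with no call in any comparison. A dimmer probe set of Col25a1 read 7.11 in deleted replicate 6 against 5.43 and 5.36 in the other deleted arrays. Over the 34 genes never called, the group means of a gene spanned a median of 0.19 and at most 0.88, the latter in Col1a1.

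The comparison of Af10 floxed with Hoxa9-Meis1 leukemias sets MLL-AF9 leukemias that keep Af10 against leukemias started by the downstream factors. It shares the floxed arrays with the comparison above. Of the 42 collagen genes 3 (7.14%) were called, against 8.89% of all genes. Col6a3 and Col19a1 were higher in floxed (4.76%, against 5.58% of all genes) and Col23a1 was lower (2.38%, against 3.31%). Both medians were -0.01.

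Col19a1 was 4.95 higher in the floxed arrays (SE 0.88, 95% interval 2.97 to 6.93; limma adjusted p = 0.0105). No fold is given, because 2 of the 3 Hoxa9-Meis1 arrays and their mean of 6.44 were under background. Col6a3 was 2.20 higher (SE 0.24; limma adjusted p = 0.00113), at least 1.33-fold. Both calls were kept in all 14 and 13 alternatives run for them. Col23a1 lay at 8.25, 7.77 and 7.97 in the Hoxa9-Meis1 arrays, above all 6 MLL-AF9 arrays, and its difference of -1.12 (SE 0.23; limma adjusted p = 0.0203) was lost without floxed replicate 5 (limma adjusted p = 0.0679), floxed replicate 6 (0.0572) or Hoxa9-Meis1 replicate 1 (0.0864). Its other probe sets, under background on all arrays, differed by -0.44 (limma adjusted p = 0.072 over all probe sets) and -1.18 (0.0578). A dimmer probe set of Col20a1 was lower in floxed by 0.61 (limma adjusted p = 0.0166) and 1 of Col4a4 higher by 0.56 (0.0348), but the latter had no array above background. Col5a1 was 1.44 higher in floxed and did not overlap Hoxa9-Meis1 (limma adjusted p = 0.0969), and Col5a3 was 1.02 higher (0.0928), so neither passed the threshold.

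In the comparison of Af10 deleted with Hoxa9-Meis1, which shares arrays with both others, 5 collagen genes (11.9%) were called, against 15.5% of all genes. Col5a1, Col5a3 and Col6a4 were higher in deleted (7.14%, against 9.27% of all genes) and Col10a1 and Col23a1 lower (4.76%, against 6.23%). The number was 3 without deleted replicate 5. The medians were 0.08 over the collagen genes and 0.05 over all genes.

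Col5a3 was at least 17.5-fold higher in deleted than in Hoxa9-Meis1 (difference 5.02, SE 0.33; limma adjusted p = 3.2e-05), and ranked 9 among the rises of all genes. Col5a1 was at least 7.23-fold higher (3.45, SE 0.47; limma adjusted p = 0.00179), also in a second probe set (2.02, limma adjusted p = 0.0203), and Col6a4 at least 1.61-fold (1.48, SE 0.17; limma adjusted p = 0.00065). These 3 calls were kept in all 13 or 14 alternatives run for them. The last probe set of Col5a1 differed by only 0.31 (limma adjusted p = 0.297 over all probe sets), with overlap and with 2 of 3 Hoxa9-Meis1 arrays above background. Col23a1 was lower by 0.97 in deleted (a difference of -0.97, SE 0.23; limma adjusted p = 0.0242), and was lost without deleted replicate 5 (0.0816), deleted replicate 6 (0.0675) or Hoxa9-Meis1 replicate 1 (0.0936). Its other probe sets, under background, differed by -0.48 (limma adjusted p = 0.0409 over all probe sets) and -0.91 (0.101). Col10a1 differed by -0.52 (limma adjusted p = 0.0215), and was lost without deleted replicate 4 (0.0728), deleted replicate 5 (0.0662) or Hoxa9-Meis1 replicate 2 (0.0855). The dimmer probe set of Col4a4 that was higher in floxed, under background on all arrays, was also higher in deleted, by 0.51 (limma adjusted p = 0.0347 over all probe sets). Col19a1 and Col6a3, the genes high in the floxed arrays, were not called here (1.01, limma adjusted p = 0.514, and -0.53, limma adjusted p = 0.188).

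Genes beside the called collagen genes were read to see whether neighbours moved. Col19a1 lies 4.95 kb from Col9a1, another fibril-associated collagen, which was at background on all arrays (5.43 to 5.79) and differed by 0.11 between deleted and floxed. Lmbrd1, on the other side, differed by -0.04. Olfm2 and Shfl beside Col5a3 differed by 0.39 (limma adjusted p = 0.717) and 0.11 (0.862). Of the genes beside Col5a1, Rxra, a retinoid receptor, rose by 0.77 (limma adjusted p = 0.0141) and Fcnb, a ficolin of myeloid cells, differed by 0.33 (0.516). Of those beside Col6a3, Mlph, which links melanosomes to myosin, differed by -0.73 (limma adjusted p = 0.0150), and Cops8, a signalosome subunit, by 0.61 (0.247). Mlph was above background only in floxed replicate 4, at 7.18, and lay at 6.05 to 6.28 in the deleted arrays. D030055H07Rik, beside Col6a4, differed by 0.70 (limma adjusted p = 0.256), at 6.85, 6.89 and 8.16 in the deleted and 6.84, 6.23 and 6.72 in the floxed arrays. Rnpc3 and Olfm3, beside Col11a1, differed by 0.20 (limma adjusted p = 0.763) and -0.20 (0.388), and Frk, beside Col10a1, by 0.11 (0.569). Of the 14 neighbours examined these 2, Rxra and Mlph, passed the test, where 6.85% of all genes did. Mlph was lost without deleted replicate 4 (limma adjusted p = 0.0557).

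Of 20 measured procollagen enzymes and chaperones, which fold and modify collagen chains, 1 rose and 1 fell between deleted and floxed (2 of 20, against 6.85% of all genes), with a median difference of -0.04 against 0.06 over all genes. Tmem38b, a potassium channel of the endoplasmic reticulum needed for collagen modification in bone, lay at 12.11, 11.92 and 11.97 against 11.17, 11.30 and 11.09 (0.81, limma adjusted p = 0.0431). It was called in 6 of 15 alternatives, and lost without any 1 of the 6 arrays (limma adjusted p 0.0895 to 0.128). Colgalt1, which adds galactose to collagen, lay at 10.92, 10.91 and 10.86 against 11.22, 11.36 and 11.50 (-0.46, limma adjusted p = 0.0325). It was called in 7 of 15, and lost without any 1 of the deleted replicates or floxed replicates 5 and 6 (limma adjusted p 0.0795 to 0.087). Serpinh1, which encodes Hsp47, was at background, between 4.81 and 5.24 on all arrays.

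None of 12 trimming and cross-linking genes was called between deleted and floxed, against 6.85% of all genes (median difference 0.07, against 0.06 over all genes). Lox, the main cross-linking oxidase, was at background (5.87 to 6.14). Pcolce, which speeds removal of the procollagen tail, was not called by its representative probe set (0.47, limma adjusted p = 0.161), while its other probe set differed by 1.49 (limma adjusted p = 0.0039 over all probe sets). That probe set was under background on all floxed arrays (5.09 to 5.30) and above it on 1 of 3 deleted arrays (6.30 to 7.16).

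Among 11 measured collagen receptors 1 rose and 1 fell, where 6.85% of all genes were called. The median difference was -0.01, against 0.06 over all genes. Lair1, an inhibitory receptor of leukocytes that binds collagen, lay at 11.60, 11.66 and 11.25 in the deleted, 9.88, 10.42 and 10.43 in the floxed and 10.57, 10.71 and 10.64 in the Hoxa9-Meis1 arrays. It was 1.26 higher in deleted than in floxed (2.39-fold, limma adjusted p = 0.0038), without overlap, in all 3 probe sets and in 15 of 15 alternatives. Itga1, the alpha1 chain of a collagen-binding integrin, lay at 6.74, 6.43 and 6.04 in the deleted arrays, all under background, and at 9.44, 10.82 and 10.82 in the floxed arrays. The Hoxa9-Meis1 arrays were spread over 7.53, 7.13 and 10.87, the last above every floxed array. The difference between deleted and floxed was -3.95 (SE 0.86; limma adjusted p = 0.0282), a level at least 11.2-fold higher in floxed, and the call was kept in 8 of 15 alternatives. It was lost without any 1 of the deleted replicates (limma adjusted p 0.0678 to 0.0786) or without floxed replicate 5 (0.108) or 6 (0.0686).

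Of 9 collagen-degrading proteases 1 was called between deleted and floxed, where 6.85% of all genes were called. Ctsl, cathepsin L of the lysosome, lay at 9.23, 8.13 and 8.03 in the deleted and 11.12, 11.11 and 9.98 in the floxed arrays (-2.27, limma adjusted p = 0.0303), in 1 of 2 probe sets and in 8 of 15 alternatives. It was lost without any 1 of deleted replicates 5 and 6 and floxed replicates 4 and 5 (limma adjusted p 0.0784 to 0.116). The median difference of the list was 0.08, against 0.06 over all genes.

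**Figure D5:**
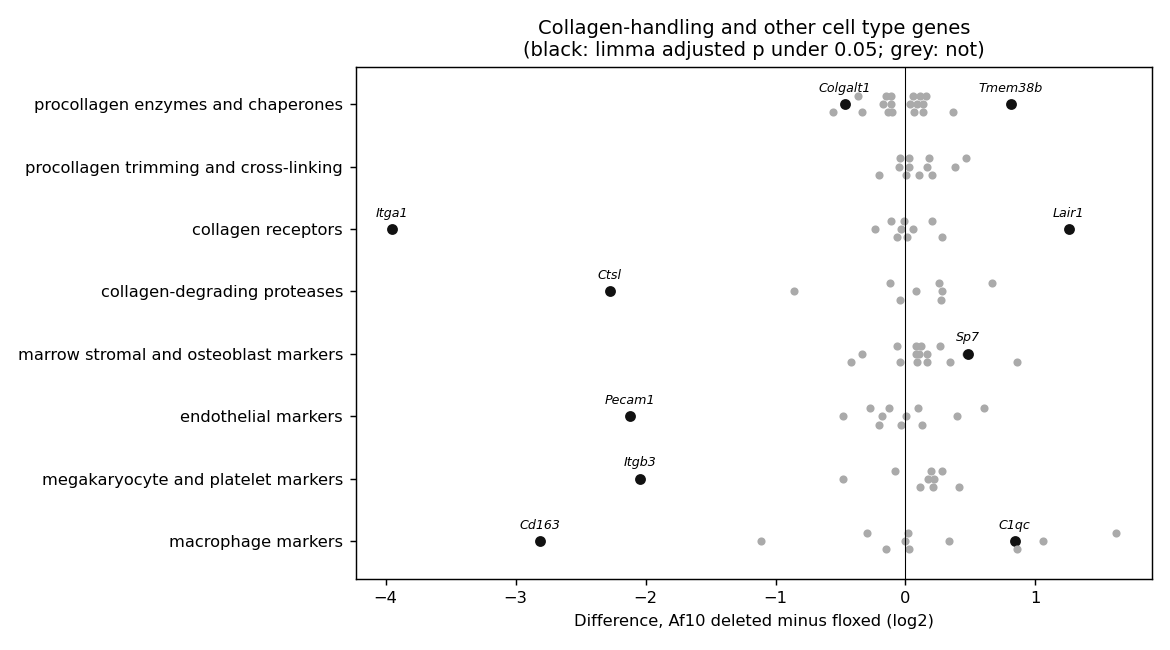
Difference between Af10 deleted and Af10 floxed leukemias (log2, horizontal axis) for each measured gene of 8 lists (rows), with 1 point per gene; black points with names have a limma adjusted p under 0.05 and grey points do not. Itga1 at -3.95 and Lair1 at 1.26 are the 2 called collagen receptors, and most points lie within 1 of 0.

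Against Hoxa9-Meis1, P3h1, a prolyl hydroxylase of collagen, was lower in both MLL-AF9 groups. It lay at 6.82, 6.55 and 6.74 in the deleted, 6.76, 6.50 and 6.67 in the floxed and 7.36, 7.43 and 7.27 in the Hoxa9-Meis1 arrays. The level was at least 1.40-fold higher in Hoxa9-Meis1 (limma adjusted p = 0.0086 against floxed and 0.0077 against deleted). Loxl3, a lysyl oxidase, was lower in floxed than in Hoxa9-Meis1 (-0.78, limma adjusted p = 0.0131), a call lost without Hoxa9-Meis1 replicate 1 (0.0591) or 2 (0.0532). Mia3, which helps load procollagen into transport vesicles, was lower in deleted (-0.66, limma adjusted p = 0.0259), and was lost without deleted replicate 4 or 5 or any 1 of the Hoxa9-Meis1 replicates (limma adjusted p 0.0562 to 0.089). Tmem38b and Lair1 were higher in deleted by 0.97 and 0.86 (limma adjusted p 0.0119 and 0.0116), in all 14 alternatives run for each. Pcolce, under background in Hoxa9-Meis1, was at least 1.34-fold higher in deleted (limma adjusted p = 0.0450), but in 6 of 14 alternatives. It was lost without deleted replicate 4 or 5 or any 1 of the Hoxa9-Meis1 replicates (limma adjusted p 0.0979 to 0.122). Ctsl was also lower in deleted than in Hoxa9-Meis1 (-1.97, limma adjusted p = 0.0308), and was lost without deleted replicate 5 or 6 or Hoxa9-Meis1 replicate 1 or 3 (0.0835 to 0.111).

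Markers of other marrow cell types that make collagen, or could be present in the samples, are given beside these results. Between deleted and floxed 6.85% of all genes were called, the share to set beside the calls of each marker list. The mean level of 16 measured stromal and osteoblast markers was 6.88 to 6.96 in the deleted arrays, 6.70 to 6.83 in the floxed arrays and 6.62 to 6.88 in the Hoxa9-Meis1 arrays. Of the 16, 8 were at or under background on all 9 arrays, including Lepr and Pdgfra of stromal cells, Dcn, Lum and Bgn of the matrix and Adipoq of fat cells. Others of the list were well above it: Pdgfrb, a receptor of stromal cells and pericytes, lay between 8.11 and 10.12, Fn1, fibronectin, between 9.42 and 10.98 in the MLL-AF9 arrays and at 8.05, 6.18 and 12.87 in the Hoxa9-Meis1 arrays, and Vcam1 between 8.96 and 11.90. Sparc, a collagen-binding matrix protein, lay between 6.83 and 7.25. Between deleted and floxed only Sp7, the osteoblast transcription factor, was called (0.48, limma adjusted p = 0.0280), at 4.70 to 5.34 and so under background. It was called in 5 of 14 alternatives, and lost without any 1 of the deleted replicates or floxed replicates 5 and 6 (limma adjusted p 0.0561 to 0.0815). The list's median difference was 0.11, against 0.06 over all genes. Postn, periostin, lay at 7.23, 8.13 and 8.21 in the deleted and at 7.96, 7.22 and 7.89 in the floxed arrays, and was under background in Hoxa9-Meis1 at 5.16, 5.55 and 5.08. It was at least 1.76-fold higher in floxed (limma adjusted p = 0.0017) and at least 1.98-fold higher in deleted (0.00063) than in Hoxa9-Meis1. Vcam1, an adhesion molecule of stroma and macrophages, was lower in floxed (-2.20, limma adjusted p = 0.0045) and in deleted (-1.34, 0.0240) than in Hoxa9-Meis1, the latter lost without deleted replicate 4 or 6 or Hoxa9-Meis1 replicate 1 or 2 (0.0502 to 0.0929).

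Of 12 endothelial markers, 7 had no array above background. Pecam1, which leukocytes also express, was the 1 called between deleted and floxed, at 7.80, 7.88 and 9.39 against 9.92, 10.67 and 10.84 (-2.12, limma adjusted p = 0.0265), with deleted replicate 6 again nearest to the floxed arrays. It was called in 10 of 15 alternatives, and lost without any 1 of deleted replicates 4 and 5 and floxed replicates 5 and 6 (limma adjusted p 0.0667 to 0.0996). It was lower in deleted than in Hoxa9-Meis1 too (-2.14, limma adjusted p = 0.0137), and lost there without deleted replicate 4 or 5 or Hoxa9-Meis1 replicate 2 (0.0504 to 0.0539). Cdh5, the junction protein of endothelium, differed by 0.58 in the same comparison (limma adjusted p = 0.0366) but was under background, and the call was lost without any 1 of the 6 arrays (0.0568 to 0.131). Eng was lower in floxed than in Hoxa9-Meis1 (-0.75, limma adjusted p = 0.0138), and was lost without Hoxa9-Meis1 replicate 1 (0.0622) or 2 (0.0552). The mean of the list ranged from 6.24 to 6.47 in deleted, 6.45 to 6.63 in floxed and 6.35 to 6.76 in Hoxa9-Meis1.

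Among 10 measured megakaryocyte and platelet markers Itgb3, an integrin chain, was called between deleted and floxed, at 7.78, 8.01 and 7.53 against 9.61, 9.96 and 9.87 (-2.04), in 1 of its 2 probe sets. It was also lower in both MLL-AF9 groups than in Hoxa9-Meis1, with differences of -0.82 in floxed, lost without floxed replicate 4 (limma adjusted p = 0.0554) or Hoxa9-Meis1 replicate 2 (0.0666), and -2.86 in deleted. The mean of the list ranged from 6.46 to 6.59 in deleted, 6.48 to 6.76 in floxed and 6.54 to 6.86 in Hoxa9-Meis1. Of 12 macrophage markers Cd163, a scavenger receptor, fell (-2.81, limma adjusted p = 0.0026, at least 3.80-fold lower), from 8.30, 9.67 and 8.43 to levels under background. C1qc differed by 0.84 (limma adjusted p = 0.0366) without reaching background on any array. It was called in 5 of 14 alternatives, and lost without any 1 of deleted replicates 4 and 6 and floxed replicates 4 and 5 (limma adjusted p 0.0919 to 0.114). Against Hoxa9-Meis1, Cd163 was lower in deleted (-2.24, limma adjusted p = 0.0040) and C1qc differed by 0.90 (0.0158), the latter lost without deleted replicate 4 (0.058) or Hoxa9-Meis1 replicate 1 (0.0655). The median difference of the macrophage list was 0.02 between deleted and floxed, -0.30 between floxed and Hoxa9-Meis1 and -0.48 between deleted and Hoxa9-Meis1, against 0.06, -0.01 and 0.05 over all genes. The macrophage mean ranged from 7.37 to 7.94 in deleted, 7.49 to 7.88 in floxed and 7.96 to 8.23 in Hoxa9-Meis1. The part of these cell types in the collagen results was not tested.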

How the data were processed

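The deposited values are RMA intensities, per the submitters' processing notes, and the RMA version is not given in the sources used here. Each array has 1 value per probe set, on a linear scale from 4.60 to 32082, with array medians of 146 to 156. Here log2(intensity + 1) was taken, which slightly understates differences of dim genes. Of 45101 probe sets, 34958 had 1 gene symbol, 932 had several and 9211 were not listed, and only the first were used. For 22 of the 42 collagen genes 2 or more arrays hold an identical value, so the spread of some is understated.

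All 9 arrays entered 1 group-means model with limma 3.58.1 (lmFit, eBayes) in R 4.3.3. Tests were two-sided, p-values were adjusted by Benjamini-Hochberg over 18194 genes, and calls were made under 0.05. The fit was tested on simulated data. The number of arrays limits the precision. "At least" folds set the bright group's mean against the higher of each dim array's value and the background level.

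The labels gave the groups and, for the MLL-AF9 arrays, the numbers 4, 5 and 6, and Hoxa9-Meis1 arrays were numbered in accession order. Named are the genes called in any comparison or above background, the listed genes called between deleted and floxed, up to 3 calls per list and direction in the other comparisons, and the neighbours on either side. The collagen genes, gene lists and tests were chosen with earlier results of these arrays known, including the rises of Col5a3 and Col5a1. Promoters came from RefSeq (GRCm38.p6), and no build is named for the deposited values.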

Additional observations from a re-analysis of the deposited data

How the results depend on the processing

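Over the 15 collagen calls, 212 values were computed under other settings; 167 kept their direction and call, 45 kept their direction and lost the call, and none reversed. Of the 7 collagen genes called between deleted and floxed, 4 were called when only genes with a mean over the 9 arrays above background were tested. That left 17 collagen genes and did not admit Col6a3, Col6a4 and Col11a1, which accounts for the smaller number. There were 3 with Hoxa9-Meis1 left out of the model, and 4 (and 498 of all genes, against 1246) with deleted replicate 6 and floxed replicate 5 left out. Leaving out 1 array at a time gave 3 to 6 collagen genes and 645 to 1204 of all genes. Between floxed and Hoxa9-Meis1, array weights gave 6 collagen genes in place of 3 and 2543 of all genes in place of 1618, and leaving out 1 array gave 2 to 4 and 681 to 1799. Between deleted and Hoxa9-Meis1, leaving out 1 array gave 3 to 6 collagen genes in place of 5 and 1540 to 2710 of all genes in place of 2821. The cause of the other moves was not tested. The number of collagen genes above background was 18, but 8 with the 99th percentile of the olfactory receptor values and 41 with the highest Y-linked value.

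Replicate numbers 4, 5 and 6 are shared by the deleted and floxed groups, but same-numbered arrays deviated together only weakly (r of 0.03, 0.05 and 0.01 over all genes), so the numbers were not taken to pair the samples. With the replicate number as a block, 3 collagen genes and 599 of all genes were called. Genes under or near the background level carry little information on change.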
